A study of Mus musculus with 2 samples.

Results

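The 42 genes described here are immediate early and stress response genes, the transcripts that cells make or stabilise within minutes of a stimulus, together with the stress and feedback genes induced beside them. They were taken by gene name from the deposited read count tables of long-read RNA sequencing of the adrenal gland, and 41 of the 42 had reads, out of 15683 annotated genes with reads in either library. Egr3 had none. The tissue came from male B6CASTF1/J mice, a first-generation cross of C57BL/6J and CAST/EiJ, at 36 days of age, with no treatment named. The study has 1 group of 2 libraries, replicate 1 and replicate 2. The labels disagree on whether both came from the same animal, so the spread between them may be technical. No condition is compared, and every test below sets the reads of one library against those of the other.

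Immediate early genes such as Fos, Jun and Egr1 are switched on without new protein synthesis, by factors that are already present: CREB, which binds the cAMP response element (CRE), and serum response factor, which binds the CArG box. Their mRNAs are short-lived, and many carry AU-rich elements in the 3′UTR that recruit decay proteins such as Zfp36. In the adrenal, pituitary ACTH acts through cAMP on the cortex, where the orphan receptor Nr4a1 and the CREM repressor ICER are classical early targets, and nerve input acts on the chromaffin cells of the medulla.

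The libraries held 452437 and 463102 endogenous reads, so 1 read was worth 2.21 CPM (reads scaled to the library's endogenous total) in replicate 1 and 2.16 CPM in replicate 2. Each read was taken as 1 molecule whatever its length, so levels were not divided by gene length. A count of 0 allows up to 6.63 CPM in replicate 1 and 6.48 CPM in replicate 2 (3 counts), and that limit, like the intervals below, covers counting error only, since reads without molecular identifiers are not independent molecules. The gland's own markers were present, with 70775 and 57009 CPM for 10 steroidogenic cortex genes and 12550 and 18147 CPM for 12 chromaffin genes. Replicate 2 stood apart by reads of pancreas and liver genes: 15 pancreas acinar genes summed to 79.6 CPM in replicate 1 (13 of the 15 at 0) against 8648 CPM in replicate 2 (none at 0), and 6 liver genes to 6.63 CPM (4 at 0) against 514 CPM (none at 0). Results with those genes left out of the tests and totals are given where they bear on a count.

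Summed over all read classes, the members had 2900 reads in replicate 1 and 1622 in replicate 2, or 6410 and 3502 CPM (mean 4956 ± 2056 SD, n = 2). A few genes carried most of this: Cebpb, Jund, Jun and Btg1 together gave 63.9% of the member reads in replicate 1 and 66.4% in replicate 2. At the other end, Fos, Fosb and the Egr genes had at most 5 reads in either library. At least 10 reads were counted for 26 members in replicate 1 and for 21 in replicate 2. In bulk tissue, fewer cells of a type and less RNA per cell cannot be told apart.

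**Figure D1:**
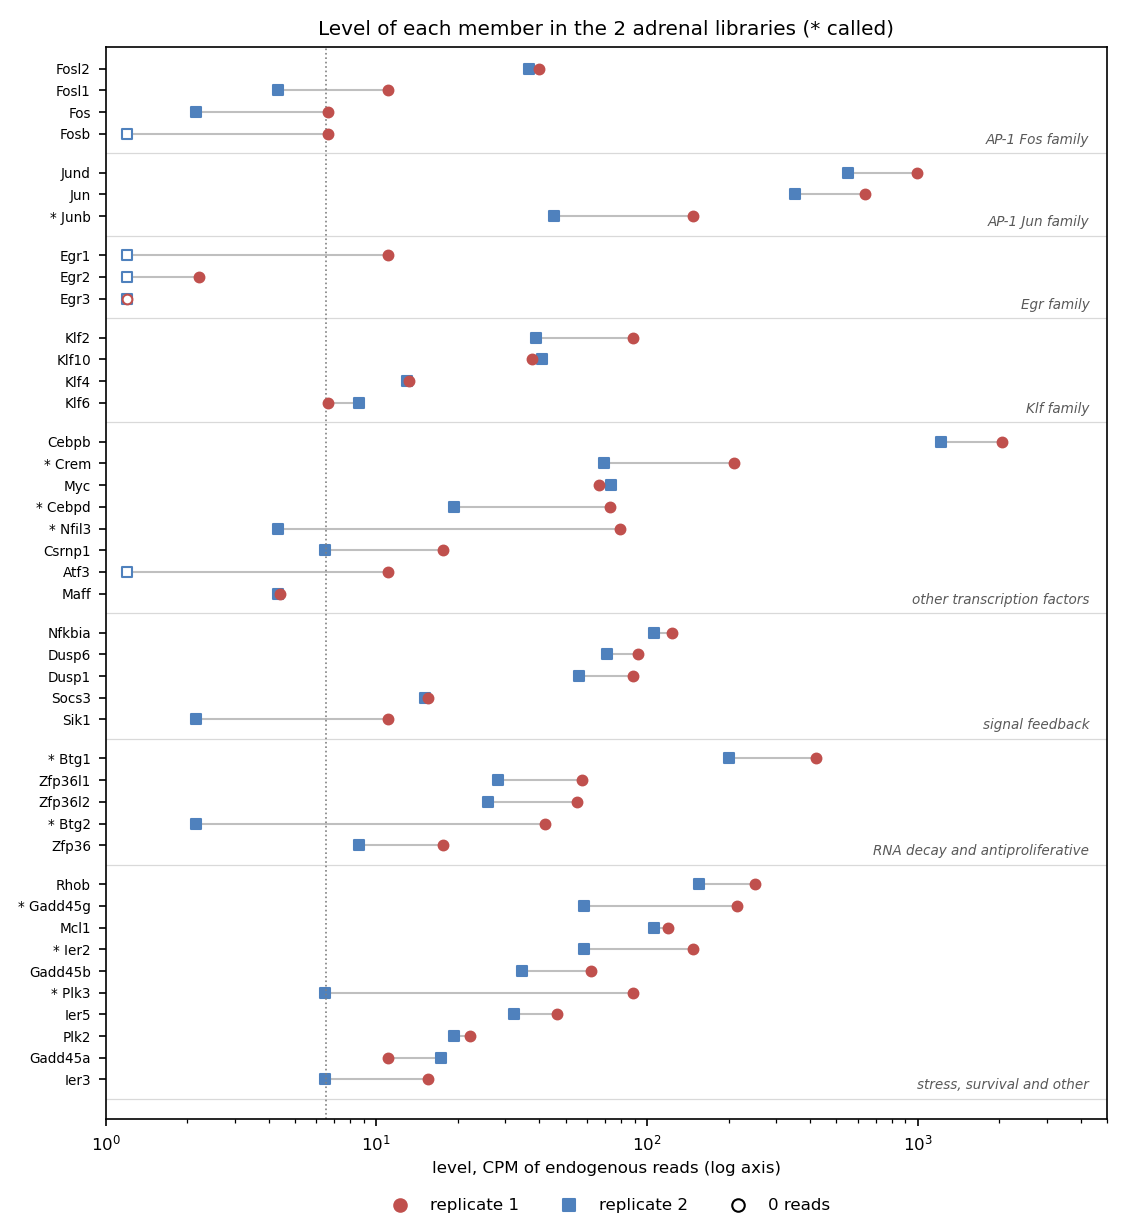
Level of each of the 42 members in CPM of endogenous reads (log axis), by role, with circles for replicate 1 and squares for replicate 2; open symbols at the left edge mark 0 reads, the dotted line lies near 3 reads, and asterisks mark the 9 called members. Cebpb, Jund and Jun lie highest in both libraries, and Egr3 has no read in either.

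Most members were higher in replicate 1. Of the 32 members with at least 10 reads over both libraries, 29 lay higher in replicate 1 and 3 (Myc, Klf10 and Gadd45a) in replicate 2. Their median log2 ratio was 0.85 (replicate 1 over replicate 2, 1 CPM added), where 55.2% of all 8135 tested genes lay higher in replicate 1 and their median was 0.03. With TMM or DESeq2 scaling, 27 of the 32 lay higher in replicate 1. Of the 32, 9 were called by Fisher's exact test (two-sided, Benjamini-Hochberg adjusted p under 0.05 over all tested genes, and at least 2-fold): Nfil3, Btg2, Plk3, Gadd45g, Cebpd, Junb, Crem, Ier2 and Btg1. All 9 were higher in replicate 1, the direction in which 1.71% of all tested genes were called, and 3.16% were called in either direction. Cebpb, Jund, Jun and Rhob passed the adjusted p but not the fold. With the pancreas, liver and ribosomal RNA genes left out, the same 9 members were called. The 10 members with fewer than 10 reads were not tested; together they had 32 reads in replicate 1 and 10 in replicate 2.

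**Figure D2:**
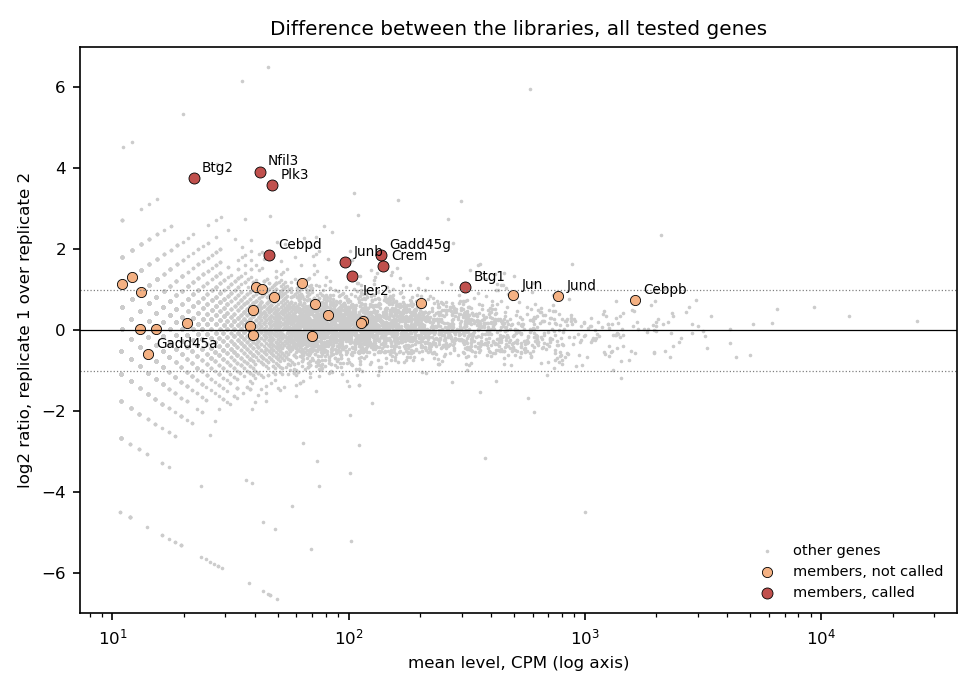
Log2 ratio of replicate 1 over replicate 2 (1 CPM added) against the mean level in CPM (log axis) for the 8135 tested genes, with the 23 tested members that were not called in orange and the 9 called members in red; dotted lines mark 2-fold. The called members all lie above the upper line, and Cebpb, Jund and Jun lie between 0 and that line.

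The Jun family supplies one side of the AP-1 dimer and was among the most abundant groups. Jund, the member that is made without stimulation in many tissues (chromosome 8, 70698949 to 70700616), had 448 reads in replicate 1 against 256 in replicate 2, or 990 and 553 CPM. Its ratio of 1.79 (exact 95% interval 1.53 to 2.10) passed Fisher's exact test (adjusted p = 3.90e-12) but lay under 2-fold. Jun itself (chromosome 4, 95049034 to 95052222), the classical partner of Fos, had 289 and 163 reads, a ratio of 1.81 (1.49 to 2.21; Fisher's exact test, adjusted p = 3.47e-08). Thus both stood higher in replicate 1 by less than the fold asked for. Junb (chromosome 8, 84974484 to 84978718), which is strongly inducible, had 67 reads against 21, a ratio of 3.27 (1.97 to 5.61; Fisher's exact test, adjusted p = 2.17e-05), and was called. Its locus overlaps the opposite-strand gene Prdx2, a peroxidase with 497 and 470 reads; all Junb reads followed the annotated form Junb-201.

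The Fos family, the other side of AP-1, was near the detection limit except for Fosl2. Fosl2 (Fra-2) had 18 reads in replicate 1 against 17 in replicate 2, a ratio of 1.08 (0.527 to 2.24). Fos had 3 and 1 reads, Fosb 3 and 0, and Fosl1 5 and 2. Each of the last 3 lies at or near the level that a count of 0 allows, so no difference was detectable at this depth. The family summed to 64.1 CPM in replicate 1 and 43.2 CPM in replicate 2, against 1777 and 950 CPM for the Jun family. The Egr zinc finger factors were sparser still: Egr1 had 5 reads and 0, Egr2 had 1 and 0, and Egr3 had none. None was tested, and the lower bound of the exact 95% interval of the Egr1 ratio was 0.938, so no difference was detectable.

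Of the Klf zinc finger factors, Klf2, which marks quiescent endothelium among other cells, had 40 reads in replicate 1 and 18 in replicate 2. Its ratio of 2.27 (1.27 to 4.22) missed the threshold narrowly (Fisher's exact test, adjusted p = 0.053), and it was called when only genes with at least 20 reads were tested (Fisher's exact test, adjusted p = 0.041). The 10 endothelial genes of the marker list summed to 858 and 825 CPM, with 0 of 7 tested called. These markers went both ways, with 4 of the 7 higher in replicate 1. Plvap had 173 and 131 reads, and Egfl7 had 41 and 73. Klf10 had 17 and 19 reads, Klf4 6 and 6, and Klf6 3 and 4, and none of the Klf genes was called; Klf6 had too few reads to be tested.

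Among the other transcription factors, Cebpb and Cebpd, leucine zipper factors of the acute phase response, both lay higher in replicate 1. Cebpb (chromosome 2, 167688915 to 167690418) was the most abundant member, with 925 reads and 565 (2044 and 1220 CPM). Its ratio was 1.68 (1.51 to 1.86; Fisher's exact test, adjusted p = 1.73e-20). Cebpd (chromosome 16, 15887286 to 15891031) was far lower in level but differed more, with 33 reads and 9, a ratio of 3.75 (1.76 to 8.92; Fisher's exact test, adjusted p = 0.0040). The paralog Cebpa had 70 and 102 reads and was not called.

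Nfil3, a bZIP repressor of the circadian D-box pathway (chromosome 13, 52967209 to 52981073), showed the highest log2 ratio among the tested members over all read classes with 1 CPM added; without the added CPM the ratio of Btg2 was higher, and over spliced reads the log2 ratios of Btg2 and Plk3 were. It had 36 reads in replicate 1 against 2 in replicate 2, a ratio of 18.4 with a wide interval of 4.74 to 158 (log2 3.92; Fisher's exact test, adjusted p = 1.14e-07). Crem, the cAMP response element modulator, had 95 and 32 reads, a ratio of 3.04 (2.02 to 4.69; Fisher's exact test, adjusted p = 3.61e-07), and its forms are described further on. Myc was nearly even, with 30 and 34 reads. Atf3, a stress-induced bZIP repressor, had 5 reads and 0 and was not tested; the lower bound of its ratio was 0.938. Csrnp1 had 8 and 3 reads, and Maff had 2 in each library.

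Of the 5 feedback inhibitors of signalling, 4 were tested and 0 were called by Fisher's exact test (0 at an unadjusted p under 0.05). Over all tested genes 3.16% were called in either direction, so 0 of 4 says little about the group. Nfkbia, which holds NF-kB in the cytoplasm, had 56 reads in replicate 1 and 49 in replicate 2 (ratio 1.17, 0.783 to 1.75). Dusp6, a phosphatase of ERK, had 42 and 33 reads (ratio 1.30, 0.806 to 2.12). Dusp1, a phosphatase of several MAP kinases, had 40 and 26 reads (ratio 1.57, 0.938 to 2.69). All 3 intervals include 1 and none of the genes was called. Socs3, a brake on cytokine receptors, had 7 reads in each library, and Sik1, a salt-inducible kinase that restrains CREB coactivators, had 5 and 1.

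The antiproliferative genes Btg1 and Btg2, which recruit deadenylases to mRNA, were both called. Btg1 (chromosome 10, 96617006 to 96622809) had 191 reads in replicate 1 against 93 in replicate 2, a ratio of 2.10 (1.63 to 2.72; Fisher's exact test, adjusted p = 8.47e-08). Btg2 (chromosome 1, 134075170 to 134079120) had 19 reads and 1, a ratio of 19.4 (3.09 to 808; Fisher's exact test, adjusted p = 5.87e-04). The interval of Btg2 is wide because it rests on 1 read in replicate 2. The 3 Zfp36 genes encode proteins that bind AU-rich elements and trigger decay. Zfp36l1 had 26 and 13 reads, Zfp36l2 25 and 12, and Zfp36 8 and 4. Over all read classes each was about as far apart as Btg1, but on fewer reads, and none was called (Fisher's exact test, adjusted p = 0.24, 0.23 and 0.66). Zfp36l1 was nearly even over the spliced classes, with 8 and 7 reads, and had 18 and 6 of the unspliced Genomic class. Btg1 had 178 and 84 reads of the spliced classes.

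In the stress and survival group, Gadd45g and Plk3 were called and their closest relatives were not. Gadd45g, a DNA damage inducible activator of stress kinases (chromosome 13, 51846678 to 51848468), had 97 reads in replicate 1 against 27 in replicate 2, a ratio of 3.68 (2.38 to 5.86; Fisher's exact test, adjusted p = 3.83e-09). Gadd45b had 28 and 16 reads, and Gadd45a, a p53 target, had 5 and 8; neither was called. Plk3, a stress-responsive polo-like kinase (chromosome 4, 117128655 to 117133963), had 40 reads and 3, a ratio of 13.6 (4.35 to 69.0; Fisher's exact test, adjusted p = 6.85e-08). Plk2, its inducible relative, had 10 and 9 reads (ratio 1.14, 0.415 to 3.16). The intervals of Plk3 and Plk2 do not overlap, but the difference between relatives, here and for the Gadd45 genes, was not tested.

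Ier2, a small nuclear protein gene without introns (chromosome 8, 84661331 to 84662852), had 67 reads in replicate 1 against 27 in replicate 2, a ratio of 2.54 (1.60 to 4.13; Fisher's exact test, adjusted p = 6.40e-04). Rhob, a short-lived endosomal GTPase, had 113 and 72 reads, a ratio of 1.61 (1.18 to 2.19; Fisher's exact test, adjusted p = 0.028). It therefore passed the p but not the fold. Mcl1, an anti-apoptotic BCL2 relative with a short-lived protein, was nearly even at 54 and 49 reads (ratio 1.13, 0.752 to 1.70). Ier5 had 21 and 15 reads and Ier3 7 and 3.

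Promoters were looked at for the sequence that CREB-type factors bind. RefSeq promoters (GRCm38.p6, 250 bases before to 50 after the start) were found for 32 of the 42 members, among them 6 of the 9 called. The genes not matched were Egr1, Egr3, Ier2, Sik1, Zfp36l2, Myc, Klf10, Cebpd, Crem and Fosl1. The full element, TGACGTCA on either strand, was present in 4 of the 32 (12.5%): Btg2, Dusp1, Maff and Plk2. It was present in 3.72% of the 6294 genes in the same table with at least 10 reads and in 2.03% of all 27025 genes in it. Each gene was counted once, over all its promoters. The short core TGACG, which lies inside the full element, was present in 17 of the 32 (53.1%). It was present in 38.0% of genes with at least 10 reads and 23.0% of all genes in the table. It was found in 5 of the 6 called members. The AP-1 site TGANTCA was present in 2 of the 32 (6.25%), against 5.85% of genes with at least 10 reads and 8.97% of all genes. The CArG box was present in 2 (Egr2 and Zfp36, 6.25%), against 1.72% and 1.81%. TATAAA was present in 8 (25%), against 8.34% and 15.7%. Such a match is a description of the letters, not a bound site.

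These 4 promoters are printed because 2 belong to called members (Btg2 and Plk3) and 2 to members that hold a full element and were not called (Dusp1 and Plk2). Capitals mark the full element and the short cores. Btg2 is at chr1:134079106-134079405 (minus strand), Plk3 at chr4:117133914-117134213 (minus strand), Dusp1 at chr17:26508423-26508722 (minus strand) and Plk2 at chr13:110394794-110395093 (plus strand).
Btg2: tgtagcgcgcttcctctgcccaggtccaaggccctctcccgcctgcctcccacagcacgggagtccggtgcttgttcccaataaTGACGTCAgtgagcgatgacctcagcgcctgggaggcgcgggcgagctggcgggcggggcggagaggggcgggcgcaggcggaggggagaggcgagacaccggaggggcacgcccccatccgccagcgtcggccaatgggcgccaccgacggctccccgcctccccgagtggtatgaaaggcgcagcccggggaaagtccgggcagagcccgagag
Plk3: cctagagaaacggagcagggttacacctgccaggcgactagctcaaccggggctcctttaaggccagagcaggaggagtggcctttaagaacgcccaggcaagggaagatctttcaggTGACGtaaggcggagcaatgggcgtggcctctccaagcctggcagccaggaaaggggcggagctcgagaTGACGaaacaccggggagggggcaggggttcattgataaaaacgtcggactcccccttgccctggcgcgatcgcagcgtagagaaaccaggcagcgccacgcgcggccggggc
Dusp1: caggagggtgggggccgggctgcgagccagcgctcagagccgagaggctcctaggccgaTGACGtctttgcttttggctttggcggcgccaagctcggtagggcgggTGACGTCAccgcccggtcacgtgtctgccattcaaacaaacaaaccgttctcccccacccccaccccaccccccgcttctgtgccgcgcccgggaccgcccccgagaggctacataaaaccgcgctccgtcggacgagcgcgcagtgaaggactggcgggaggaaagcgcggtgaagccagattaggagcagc
Plk2: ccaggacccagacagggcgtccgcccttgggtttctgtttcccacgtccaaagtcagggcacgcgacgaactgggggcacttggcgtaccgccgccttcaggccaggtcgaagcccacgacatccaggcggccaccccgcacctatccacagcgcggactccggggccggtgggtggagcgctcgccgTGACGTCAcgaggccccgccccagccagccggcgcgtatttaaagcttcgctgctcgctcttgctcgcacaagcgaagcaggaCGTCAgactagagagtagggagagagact
Counting the start base as 0, the full element begins at base -166 in Btg2, -143 in Dusp1 and -62 in Plk2. Plk3, with a ratio of 13.6 between the libraries, holds short cores at -132 and -63 and no full element in this window. Plk2 and Dusp1 hold the full element and had ratios of 1.14 and 1.57. These 4 genes were picked by their calls and elements, so nothing is read from how the element and the ratio go together in them.

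The AU-rich heptamer TATTTAT, the core that Zfp36 proteins bind, was searched on the sense strand of the 3′UTR of each gene's leading annotated form (GENCODE M21). It was present in 23 of 40 members with such a form (57.5%), against 23.7% of 7361 tested genes. The length of the 3′UTR differed little, with a median of 898.5 bases in members and 842 in all tested genes, and the density was 0.912 matches per 1000 bases in members and 0.267 in all tested genes. The longer nonamer TTATTTATT was present in 11 members (27.5%) and in 5.58% of tested genes. The heptamer was found in 3 of the 9 called members (Btg2, Cebpd and Plk3) and in 15 of 22 tested members that were not called. The called members had shorter 3′UTRs, with a median of 489 bases against 874.5. Their density was 0.426 matches per 1000 bases against 1.22. The part of length in this contrast was not tested. Fos and Ier3 are shown as classical short-lived early mRNAs, Plk3, Btg2 and Cebpd as the called members with a match, and Zfp36 because its own 3′UTR holds the element. Each is a window of 30 bases around the first match, with the heptamer in capitals.
Fos: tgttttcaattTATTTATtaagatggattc
Ier3: tgtctaattaaTATTTATgtatttatgtat
Plk3: ctagggggcatTATTTATggaccactttta
Btg2: aaatgaagagcTATTTATacatgttttttt
Cebpd: ggttggacattTATTTATtgtaacagaaca
Zfp36: agtgggcccttTATTTATgacgactttatt
The windows are at chr12:85477103-85477132 (plus strand, Fos), chr17:35822481-35822510 (plus strand, Ier3), chr4:117128734-117128763 (minus strand, Plk3), chr1:134077248-134077277 (minus strand, Btg2), chr16:15889228-15889257 (plus strand, Cebpd) and chr7:28376965-28376994 (minus strand, Zfp36) on GRCm38. Ier3 holds 4 matches, Plk3 and Zfp36 3 each, Fos 2, and Btg2 and Cebpd 1 each.

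Reads of the Genomic class overlap a gene without following its splicing, and can include RNA not yet spliced. Genes with introns are here those with any annotated form of 2 or more exons. For the 36 members with introns, such reads made up 9.26% of reads in replicate 1 (Wilson 95% interval 7.64 to 11.2%) and 12.4% in replicate 2 (9.85 to 15.5%), against 4.97% and 5.96% of the reads of all tested genes with introns. Much of this lay in exons: 63.5% of the members' single-exon Genomic reads in replicate 1 and 66.2% in replicate 2 came from models with at least 95% of their length in annotated exons, against 50.7% and 53.7% over all genes. Fosl2 had 12 Genomic reads of 18 and 12 of 17, nearly all in 1 model that lies wholly in exonic sequence. Zfp36l1 had 18 of 26 and 6 of 13, also inside exons. By contrast the Genomic models of Gadd45g (12 of 97 reads and 2 of 27) and Btg1 (13 of 191 and 9 of 93) held intron sequence. Of their length 65.5% and 79.8% was exonic, and the Gadd45g model spanned the whole gene.

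The difference between the libraries was much the same over the spliced classes, which also hold reads of annotated single-exon models, such as all those of Ier2. Over reads of the spliced classes (Known, ISM, NIC and NNC), the same 9 members were called out of 31 tested, all higher in replicate 1, where 1.84% of 7671 genes were called in that direction and 3.39% in either. The median log2 ratio was 0.84, against 0.08 for all genes. Btg2 had 16 such reads in replicate 1 and 0 in replicate 2. Over models with 2 or more exons alone, 6 members were called, among 206 genes called in all. There, 19 of 21 tested members lay higher in replicate 1, with a median of 0.44 against 0.10 for all genes. Junb, Cebpd and Ier2 had no test over those models. Over Genomic reads, 6 members had enough reads to be tested and 1, Gadd45g, was called, higher in replicate 1 (Fisher's exact test, adjusted p = 0.036); without a minimum of reads, 0 were called. Of all 665 genes tested on Genomic reads, 7.97% were called higher in replicate 1 and 18.8% in either direction, and their median was -0.36. The Genomic share itself was called in 0 of 21 members by Fisher's exact test (3 at an unadjusted p under 0.05, lowest adjusted p = 0.19, for Mcl1 with 0 of 54 reads against 7 of 49), with 0.904% of 5309 genes called.

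**Figure D3:**
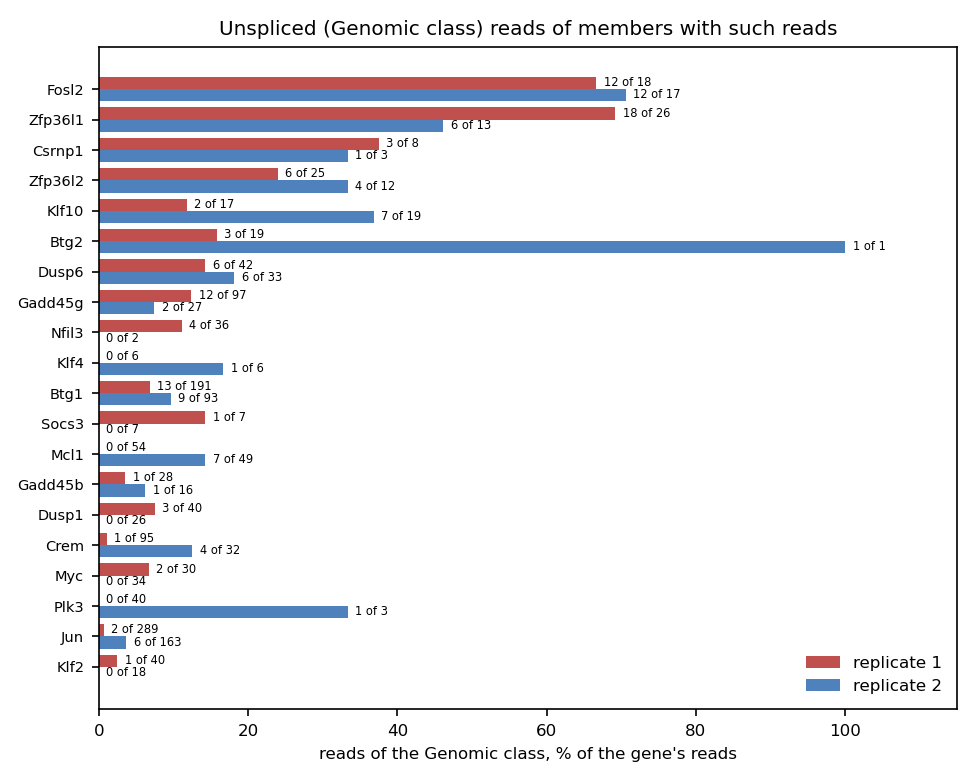
Share of each gene's reads that were of the Genomic class, in percent, for the members with at least 10 reads over both libraries and at least 1 Genomic read, with replicate 1 above replicate 2 and the read counts beside the bars. Fosl2 and Zfp36l1 have the highest shares with more than 10 reads in each library, and no member's share was called.

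The members with a single exon are 6 in number: Cebpb, Jund, Jun, Rhob, Ier2 and Ier5. All 6 lay higher in replicate 1. Their median log2 ratio was 0.79, where 310 tested genes with 1 exon had a median of -0.19. The 26 tested members with introns, by annotation, had a median of 0.98, with 23 higher in replicate 1. Of these members 8 were called, against 228 of all 7825 tested genes with introns. Junb and Cebpd are among the 8 called, but had too few reads in models with 2 or more exons to be tested there. The direction was thus shared by members with and without annotated introns. Over models with 2 or more exons, 19 of 21 tested members lay higher in replicate 1, with a lower median of 0.44. In 5 groups of equal size by transcript length, the members' medians were 1.14, 1.00, 0.53, 0.68 and 0.59 from the shortest to the longest, where those of all genes were -0.20, 0.12, 0.23, 0.14 and 0.03. The members' medians rest on 5, 8, 8, 8 and 2 members in that order.

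Long reads also show which form of each gene was present. Of 14 members for which each library gave 20 or more full-length reads, 7 had 1 form only, Cebpb and Btg1 among them. For the other 7 the share of the leading form was compared, and 0 were called by Fisher's exact test (0 at an unadjusted p under 0.05), with 0.287% of 2788 genes called. Dusp1, Dusp6, Gadd45g, Jun and Nfkbia each had at least 93.8% of full-length reads in 1 annotated form. Myc used 2 forms, with 18 and 21 reads of Myc-201 and 9 and 10 of Myc-202.

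Crem was the exception, with 24 forms in 92 and 28 full-length reads. The gene has 39 annotated forms over 71.7 kb. Of these forms, 7 start at the internal promoter 56.0 to 56.7 kb downstream of the gene's 5′ end, the region from which the short repressor ICER (inducible cAMP early repressor) is known to be made. Of the spliced-class reads, 83 of 94 in replicate 1 (88.3%, Wilson interval 80.2 to 93.3%) and 24 of 28 in replicate 2 (85.7%, 68.5 to 94.3%) belonged to models that start more than 50 kb into the gene. The internal models were higher in replicate 1 by a ratio of 3.54 (2.22 to 5.83). The upstream models had 11 and 4 reads, a ratio of 2.81 (0.834 to 12.1). The intervals overlap, but a shift between the starts was not tested. Within the internal forms, Crem-235 had 30 and 15 reads and Crem-229 had 29 and 3. The share of Crem-235 among full-length reads was 32.6% against 53.6% and was not called (Fisher's exact test, adjusted p = 1). A read that stops short of the 5′ end can also be placed on a form that starts further downstream, and this was not tested.

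**Figure D4:**
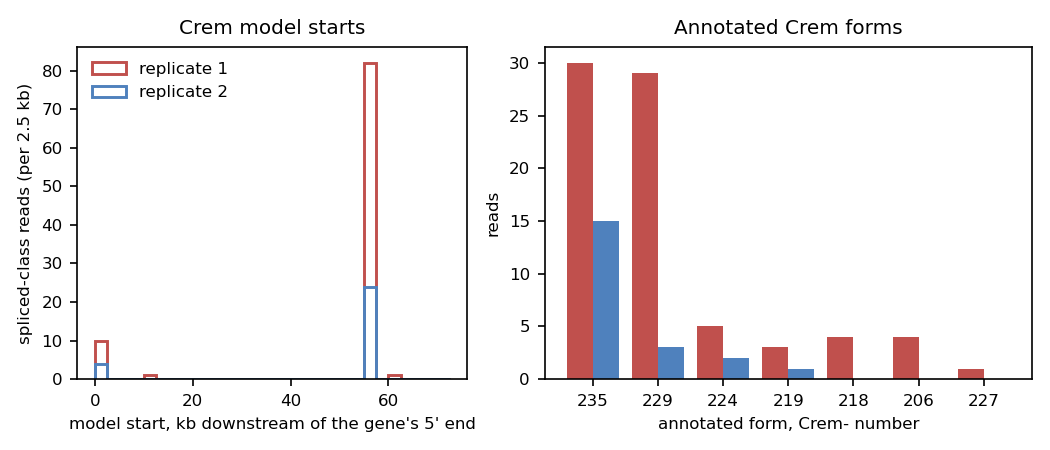
Left, spliced-class reads of Crem by where their model starts, in kb downstream of the gene's 5′ end (bins of 2.5 kb), for replicate 1 and replicate 2; right, reads of each annotated Crem form, replicate 1 left of replicate 2. Most reads belong to models that start more than 50 kb into the gene, 83 of 94 in replicate 1 and 24 of 28 in replicate 2.

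Genes with related roles were read from the same gene-by-gene tests. There, 1.71% of all tested genes were called higher in replicate 1 and 3.16% in either direction. At that share, 0 calls in a short list is not read as a result. Of the Nr4a orphan receptors, Nr4a1 had 519 reads in replicate 1 and 8 in replicate 2 (ratio 66.4, 33.5 to 155; Fisher's exact test, adjusted p = 1.57e-141), Nr4a2 had 24 and 1, and Nr4a3 had 3 and 0. Of 19 other induced genes tested, 5 were called higher in replicate 1 (Phlda1, Pim3, Pim1, Errfi1 and Gem) and 0 in replicate 2, and the median log2 ratio was 0.80. Pim1, a kinase induced by cytokines, had 73 and 19 reads, and Gem, a small GTPase, had 37 and 5. The kinases and factors that lie upstream of these genes include Srf, the MAP kinases and protein kinase A. Of these, 0 of 18 tested were called in either direction by Fisher's exact test, and the median was 0.12. Prkaca, the catalytic subunit of protein kinase A, had 169 and 163 reads. Of 31 tested paralogs of members, 3 were called higher in replicate 1 (Atf4, Klf15 and Dusp5), with a median of 0.36.

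Stress pathway genes were also counted by list, beside the same shares of all tested genes (1.71% called higher in replicate 1, 3.16% in either direction). Of 13 heat shock genes, 9 lay higher in replicate 1. Of the 13, 6 were called higher in replicate 1 (Hspa1b, Dnajb1, Hspa1a, Bag3, Dnaja1 and Hspa8) and 0 in replicate 2. Hspa1b, an inducible HSP70, had the highest ratio, with 132 reads against 14, and the median log2 ratio of the list was 0.53. Hspb1 went the other way, with 158 and 260 reads, a ratio of 0.62 (0.51 to 0.76). It passed the adjusted p (Fisher's exact test, adjusted p = 7.53e-05) but not the fold. Hspa8, the constitutive HSP70, had 1331 and 659 reads. Of 16 genes of the integrated and endoplasmic reticulum stress responses, 3 were called higher in replicate 1 (Atf4, Ddit4 and Dnajb9) and 1 (Nupr1) in replicate 2, with a median of 0.28. Among 8 tested p53 response genes 0 were called in either direction and the median was 0.00, and among 5 tested NF-kB response genes 0 were called and the median was 0.30. These lists hold few tested genes, and no difference between lists was tested.

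**Figure D5:**
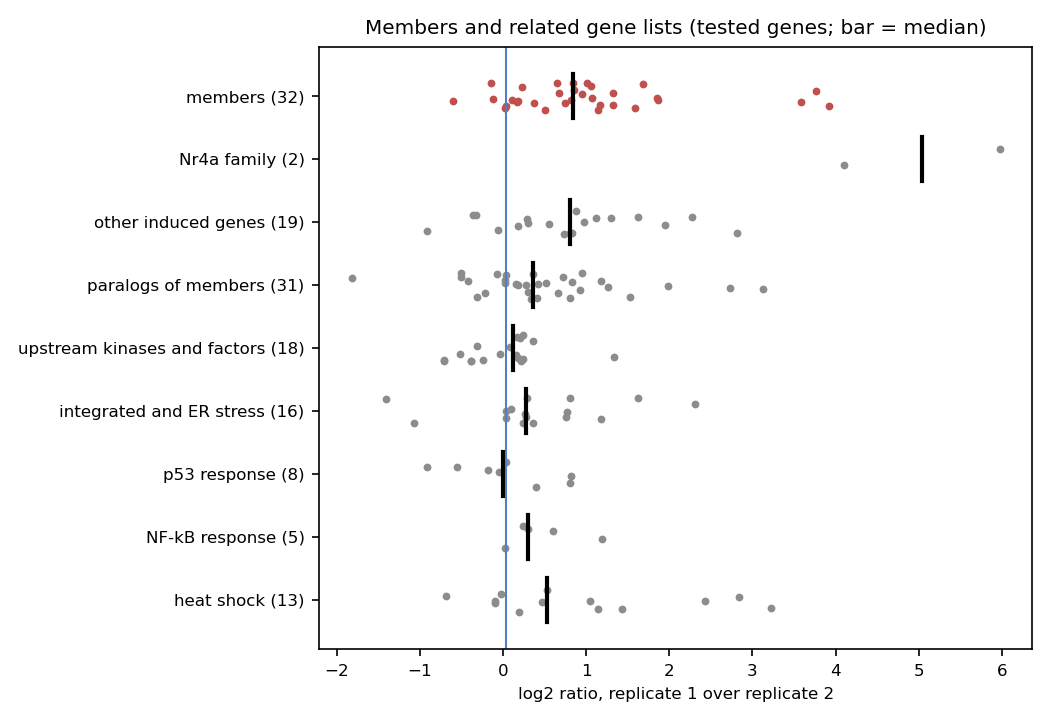
Log2 ratio of replicate 1 over replicate 2 for each tested gene of the members (red) and of 8 related lists (grey), with the number tested in brackets, a black bar at each median and a blue line at the median of all 8135 tested genes (0.03). The members have a median of 0.85 and the other induced genes of 0.80, and the upstream kinases and factors lie around 0.12.

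Cell type markers were set beside these values. The cortex list (10 tested, 1 called, Nr5a1, with 274 reads against 129) had a median log2 ratio of 0.34 and the chromaffin list (11 tested, 0 called) of -0.41. In the cortex list 9 of 10 lay higher in replicate 1, and in the chromaffin list 3 of 11. Several genes of both lists passed the adjusted p but not the fold. Star had a ratio of 1.49 (Fisher's exact test, adjusted p = 5.46e-73). Chga and Chgb had ratios of 0.656 and 0.630 (Fisher's exact test, adjusted p = 1.05e-42 and 1.48e-44). Macrophage genes summed to 789 CPM in replicate 1 and 929 CPM in replicate 2 (6 tested, 0 called; 1 of 10 at 0 in replicate 1). Lymphocyte genes summed to 33.2 and 32.4 CPM with 9 and 7 of 10 at 0, and neutrophil genes to 6.63 and 8.64 CPM with 8 and 7 of 10 at 0. Fat genes (9 tested) had 1 called, Ucp1, higher in replicate 2 with 198 and 437 reads, and red cell genes (5 tested) had 1, Alas2, higher in replicate 1 with 26 and 6. Stroma genes (7 tested, 0 called) summed to 2579 and 1915 CPM, and Schwann cell genes (1 tested, 0 called) to 30.9 and 54.0 CPM. The part of the cortex and medulla shares, and of the pancreas and liver reads, in the members' difference was not tested, apart from the count without the pancreas and liver genes given above.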

How the data were processed

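Long RNA reads were collected from 2 adrenal libraries of 1 group. Per the file headers, the authors deposited whole read counts per transcript model, on mm10 with GENCODE M21, and left them unscaled. The column names are TALON's, a program that sorts reads into Known, incomplete (ISM), newly combined (NIC and NNC), Genomic, Antisense and Intergenic classes. Versions of the aligner and TALON: not given in the sources used here.

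Spike-in reads were left out, reads were summed per gene, and CPM was taken over 452437 and 463102 endogenous reads. Genes with at least 10 reads over both libraries were tested (scipy 1.17.1) by Fisher's exact test (two-sided) and Benjamini-Hochberg adjustment over all genes. A call needs an adjusted p below 0.05 and 2-fold or more with 1 CPM added. With 1 library a side this compares these libraries, not conditions, and a fit across replicates has no residual degrees of freedom. Shares were called at 10 percentage points or more, with at least 10 reads, or 20 full-length reads for forms, in each library. Ratios carry exact conditional and shares Wilson 95% intervals. The tests were checked on simulated counts that held counting error only, so this check does not cover further spread between libraries. edgeR 4.0.16 gave TMM and DESeq2 1.42.0 size factors as alternatives.

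The members and lists were chosen with earlier results of these data known. Named genes are the called members, the 12 most abundant members and, of each other list, called genes and up to 3 abundant ones; other members are given by reads.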

Additional observations from a re-analysis of the deposited data

Results flagged for a closer look

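Reads on the opposite strand of members were counted apart from the levels above. Fosl2 had 15 antisense reads in replicate 1 and 22 in replicate 2, beside 18 and 17 sense reads, and Btg1 had 20 and 12, beside 191 and 93. Both exceed the 3 reads that a count of 0 allows in each library, and neither locus has an annotated gene on the opposite strand. Over all 18 members with such reads there were 45 and 62. No comparison in the report uses them.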

How the results depend on the processing

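The 9 called members kept their direction and call in all 87 values over 10 alternatives (TMM and DESeq2 scaling, read minimums, added CPM, fold, read classes, and without pancreas, liver and ribosomal RNA genes); Cebpd, Junb and Ier2 had no test over models with 2 or more exons, where 6 members were called. Among these alternatives, the 1.5-fold threshold and 0.5 CPM added could not lose a call, and the added CPM does not enter the p. The count of called members ran from 6 to 13 and the median log2 ratio of tested members from 0.44 to 1.01. At 1.5-fold, 400 genes were called in place of 257. Without a minimum of reads, 0 members were called on Genomic reads in place of 1. The share of called genes higher in replicate 1 was 54.1%, and 47.2% with TMM and 49.4% with DESeq2 factors. The Genomic share of member reads averaged 3.88% (3.38 to 4.38% with 1 library left out) and 10.8% without single-exon members, whose own reads were 0.107% and 0.546% Genomic. With 1 library left out, the summed level ran from 3502 to 6410 CPM and the members with at least 10 reads from 21 to 26. No paired analysis was possible because there is 1 group only. At this depth the 10 members with under 10 reads were not tested.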
